A study of Mus musculus with 15 samples.

Results

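The collagen genes of the mouse heart were examined 3 days after a pressure load. Members were all genes whose symbol is Col, a number, the letter a and a number, and whose probe was well above background on at least 3 of 15 arrays. Of 39 such symbols with a probe, 37 passed and are described here, among 25787 features tested in all. They comprised 11 fibrillar, 6 basement membrane and 6 FACIT collagens and 14 of other classes. Col10a1 and Col17a1 had a probe that passed on 1 array only. Col12a1, Col20a1, Col21a1, Col22a1, Col6a3 and Col6a5 were not analysed here.

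RNA came from the apex of hearts of male C57BL6 mice aged 10 weeks, taken 3 days after transverse aortic constriction (TAC) or a sham operation. TAC narrows the aorta by surgery, so that the left ventricle pumps against a raised pressure. Mice of both genotypes carried cre under a myosin heavy chain (MHC) promoter, which is active in heart muscle cells. The genotype MHC-cre is called Cre, and MHC-cre-klf4, named for the transcription factor gene Klf4, is called KO. The labels used here do not describe the Klf4 allele further. The arrays, each read in 1 colour, numbered 4 and 3 for sham and TAC under Cre and 4 for each operation under KO. Values are log2 of the processed signal minus that array's 75th percentile, so a level of 0 is the 75th percentile and probes of different genes are not compared by level.

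Collagens are triple helices of 3 chains that form the scaffold between cells, and in the heart most fibrillar collagen is made by fibroblasts. Fibrillar collagens, above all types I, III and V, assemble into the fibres that give the wall its tensile strength, and type V sits within type I fibres and limits their width. Type IV chains form the sheet of the basement membrane around muscle cells and capillaries. FACITs (fibril-associated collagens with interrupted triple helices) coat the surface of fibrils. The other classes include the beaded filaments of type VI, the short-chain network of type VIII, collagens that span the cell membrane, and the multiplexins XV and XVIII of the basement membrane zone. After a pressure load, deposition of fibrillar collagen is a known part of cardiac fibrosis.

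KO TAC replicate 4 stood apart from the other 14 arrays. Its median processed signal was 445 against 83.7 to 141.5, 95.9% of its probes were well above background against 65.6% to 75.4%, and it correlated with the rest at a median of 0.833, where they gave 0.948 to 0.975. The counts, and the KO values that it moved most, are also given without it. The direction of each genotype difference is unsettled. Of 15 scanner files 14 matched a column of the authors' deposited value table, with the genotype turned and the operation unchanged in each case. Groups are therefore named by how the scanner files list them, as filed under Cre or KO. The description field names the other operation for 7 of 15 samples, and the groups follow title and source name. Nppb, a peptide hormone gene that load induces, rose by 2.38 ± 0.40 (SE) under Cre (limma adjusted p = 0.0047) and 1.46 ± 0.37 under KO (adjusted p = 0.0132). Nppa, the other load check, read 6.42 ± 0.59 and 8.47 ± 0.10 (SD, n = 4 and 3) after sham and TAC filed as Cre. Filed as KO it read 7.97 ± 0.55 and 8.52 ± 0.23 (SD, n = 4 each). These KO groups overlapped, since sham arrays reached 8.49 and the lowest TAC array read 8.29. Nppb also read higher after sham filed as KO (6.53 ± 0.44, SD) than filed as Cre (5.12 ± 0.68, SD). Klf4 read 3.98 ± 0.25 (SD, n = 4) after sham filed as Cre and 3.94 ± 0.51 (SD, n = 4) filed as KO, so this probe did not separate the genotypes. The sources used here do not say whether it lies in a deleted part. All 8 listed heart muscle markers, Myh6 and Tnnt2 among them, were measured and well above background in each group.

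In hearts filed as Cre, 11 of 37 collagens rose after TAC and 0 fell (limma over all features, Benjamini-Hochberg adjusted p under 0.05), where 4.3% of all features rose and 1.64% fell. At an unadjusted p under 0.05, 19 were higher and 1 was lower (20 of 37, and 18.5% of all features in either direction). The 37 members' median log2 difference was 0.89, against -0.05 for all features. In hearts filed as KO, 10 rose and 1 fell, where 10.6% of all features rose and 12.6% fell. The median there was 0.74, against 0.11 for all features. At an unadjusted p under 0.05, 14 were higher and 1 was lower (15 of 37), where 34.4% of all features passed in either direction, so the share of collagens counted was near that of all features. Col1a1, Col1a2, Col5a1, Col5a2, Col4a2 and Col8a1 rose in both genotypes, which is 6 of 11 and 6 of 10. Without KO TAC replicate 4, 16 rose and 1 fell filed as Cre (7.93% and 5.58% of all features), and 12 rose and 2 fell filed as KO (14.8% and 16.7%). Of these 10 rose in both. With slide as a fixed block, 15 rose filed as Cre (5.11% of all features), and 11 rose and 1 fell filed as KO (13% and 15.8%). Arrays of 1 slide deviated from their group means together, with a median correlation of 0.28 over 21 pairs. Median scaling in place of the 75th percentile kept the sign of each of these calls, but 6 filed as Cre and 0 filed as KO were then called higher (1.36% and 2.98% of all features). It moved the median of all features filed as KO from 0.11 to -0.26, and with KO TAC replicate 4 left out as well it called 16 and 13 higher (6.94% and 16% of all features).

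The fibrillar class stood highest among the 4 classes by its median in both comparisons. Filed as Cre, 5 of 11 fibrillar genes rose and their median log2 difference was 2.19, against 0.14 for 6 basement membrane, 0.34 for 6 FACIT and 0.44 for 14 other collagens. Filed as KO, 6 of 11 rose and the median was 1.21, against 0.48, 0.13 and 0.50. Those 3 values rest in part on KO TAC replicate 4: without it they were -0.01, -0.33 and 0.24, while the fibrillar median was 1.20 and that of all features -0.09. Under median scaling the FACIT median filed as KO turned to -0.24, and under quantile normalization to -0.32, while the other class medians kept their sign under these 2 scalings with all arrays. The classes were not tested against each other. Groups without overlap were counted as a further description. The TAC arrays filed as Cre lay wholly above the sham arrays for 16 collagens and wholly below for 2 (13.4% and 13.5% of all features). Filed as KO this held for 11 and 1 (10.4% and 13.3%). The 11 include Col24a1, which passed the filter on dim probes through TAC arrays only.

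**Figure D1:**
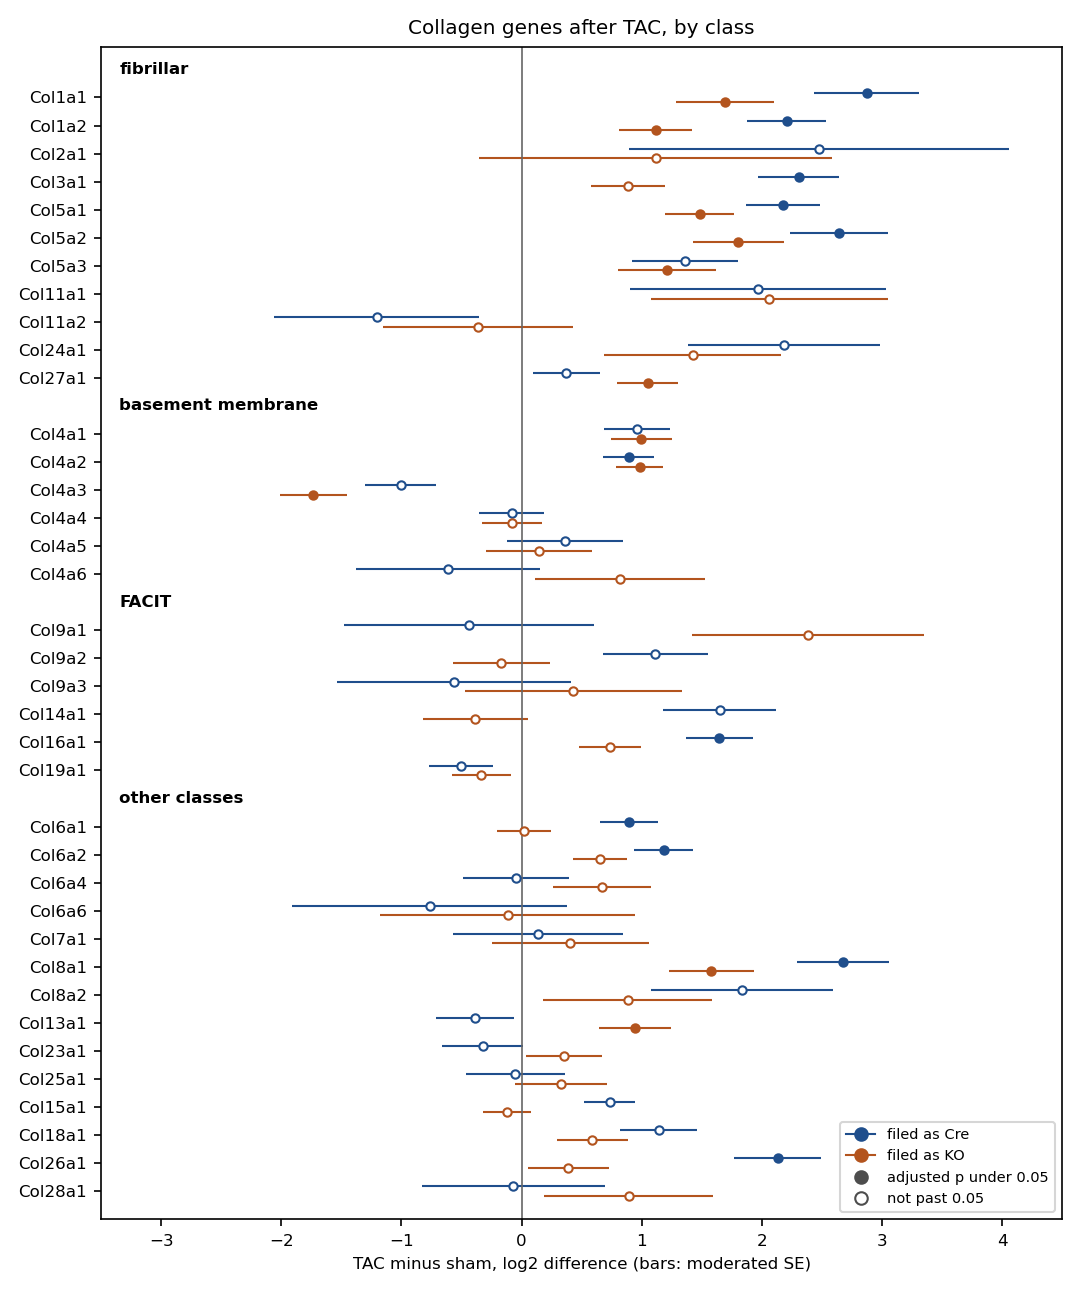
TAC minus sham for 37 collagen genes by class, as a log2 difference on the x axis with its moderated standard error, in arrays filed as Cre (blue) and filed as KO (orange); filled points passed the threshold and open points did not. Of the fibrillar genes 10 of 11 lie above 0 in each comparison, and Col4a3 (-1.01 and -1.73) lies on the other side of 0 from Col4a1 and Col4a2.

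Type I collagen is the main fibre of the heart wall, made of Col1a1 and Col1a2 chains. Col1a1 read 2.95, 2.66, 2.57 and 2.40 on the sham arrays filed as Cre, and 5.61, 6.35 and 4.60 after TAC. Filed as KO it read 2.85, 4.77, 4.13 and 3.38 after sham and 5.44, 5.29, 5.88 and 5.31 after TAC. All TAC arrays lay above the sham arrays of their genotype, and KO sham replicates 2 to 4 lay above all sham arrays filed as Cre. Col1a1 rose by 2.87 ± 0.44 (SE) filed as Cre, a 7.32-fold change with an adjusted p of 0.00262, and by 1.70 ± 0.41 filed as KO (adjusted p = 0.00915). Within the 3 slides that held both groups the difference filed as Cre lay between 1.65 and 3.77, and within 4 slides filed as KO between 0.67 and 2.43. Its 3 probes gave 2.87, 2.95 and 3.31 filed as Cre.

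Col1a2 read 5.06, 4.80, 4.47 and 4.77 after sham and 7.33, 7.34 and 6.28 after TAC filed as Cre. Under KO the values were 4.97, 6.04, 5.75 and 4.78 after sham and 6.43, 6.56, 6.75 and 6.27 after TAC. The groups did not overlap in either genotype, and the gap was narrower filed as KO, where sham replicate 2 came close to TAC replicate 4. Col1a2 rose by 2.21 ± 0.33 (adjusted p = 0.0023) and 1.12 ± 0.30 (adjusted p = 0.0175). The second call ended without KO sham replicate 1 or 4 (0.98 and 0.92, adjusted p = 0.0582 and 0.0601).

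Type III collagen, a homotrimer of Col3a1, forms finer fibres that run with type I. Col3a1 read 4.37, 3.94, 3.96 and 4.26 after sham and 6.60, 6.82 and 5.91 after TAC filed as Cre, and rose by 2.31 ± 0.33 (adjusted p = 0.00216). On the KO arrays it read 4.89, 6.07, 5.67 and 4.60 after sham and 6.34, 5.90, 6.52 and 6.03 after TAC. These groups overlapped, since KO sham replicate 2 lay above TAC replicates 2 and 4. The difference was 0.89 ± 0.31 and did not pass (adjusted p = 0.0551), but it passed without KO sham replicate 2 (1.14, adjusted p = 0.0153), without KO TAC replicate 4 (0.94, adjusted p = 0.0493) or without Cre TAC replicate 3 (0.89, adjusted p = 0.0493). The dimmer of 2 Col3a1 probes gave 2.16 filed as KO (adjusted p = 0.0102 in a fit over all probes), so the brighter probe's value is the smaller one.

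Type V chains initiate fibril assembly. Col5a1 read 1.81, 1.62, 1.52 and 1.73 after sham and 4.15, 4.32 and 3.07 after TAC filed as Cre, and 2.05, 2.93, 2.72 and 1.89 against 3.93, 3.90, 4.13 and 3.56 filed as KO. No TAC array overlapped a sham array of its genotype. It rose by 2.18 ± 0.31 (adjusted p = 0.00208) and 1.48 ± 0.29 (adjusted p = 0.00271). Col5a2 read 0.15, -0.11, -0.37 and -0.49 after sham and 2.39, 3.30 and 1.63 after TAC filed as Cre, and -0.15, 1.55, 0.95 and 0.42 against 2.52, 2.16, 2.80 and 2.51 filed as KO. The groups were again apart in both genotypes, with rises of 2.64 ± 0.41 (adjusted p = 0.00271) and 1.80 ± 0.38 (adjusted p = 0.00421). Col5a3, the third chain of the type, passed filed as KO (1.21 ± 0.41, adjusted p = 0.0473) and not filed as Cre (1.36 ± 0.44, adjusted p = 0.094). Its call ended for 9 of the 15 arrays when 1 was left out, with an adjusted p up to 0.131 without KO sham replicate 3; the others were Cre TAC 1 and 2, KO TAC 1 to 3 and KO sham 1, 2 and 4.

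Col27a1, a fibrillar collagen best known from cartilage, followed another pattern. It read -3.59, -3.54, -2.91 and -2.66 after sham and -2.50, -2.92 and -2.98 after TAC filed as Cre, which overlapped. Filed as KO it read -2.33, -2.74, -2.97 and -2.62 after sham and -1.76, -1.62, -1.99 and -1.08 after TAC, which did not. It rose by 1.05 ± 0.26 filed as KO (adjusted p = 0.00978) and differed by 0.37 ± 0.28 filed as Cre (adjusted p = 0.585). The difference of the responses was 0.68 ± 0.38 (adjusted p = 0.804).

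The remaining fibrillar genes did not pass in either comparison. Col2a1, the main cartilage collagen, spread from -5.42 to 2.51 over the arrays and differed by 2.48 ± 1.59 filed as Cre and 1.12 ± 1.47 filed as KO. Slide as a fixed block gave 3.04 and 1.12 with adjusted p of 0.00537 and 0.0362. A second Col2a1 probe, well above background on 15 arrays, gave 0.24 ± 0.95 and 1.39 ± 0.88 without the block and did not pass. Col11a1 and Col11a2, chains of the cartilage fibril type XI, differed by 1.97 ± 1.07 and -1.20 ± 0.85 filed as Cre and by 2.06 ± 0.99 and -0.36 ± 0.79 filed as KO. A second Col11a2 probe gave 0.01 ± 0.55 filed as Cre and 0.48 ± 0.51 filed as KO, so the sign was that of 1 probe. Without KO TAC replicate 4 the KO values of Col2a1, Col11a1 and Col11a2 were 0.58, 1.39 and -1.25. Col24a1 was not well above background on any sham array. After TAC it was so on replicates 1 and 2 filed as Cre, at -4.17 and -5.34, and on replicates 3 and 4 filed as KO, at -5.92 and -3.06. Set against the lowest signal well above background on the sham arrays the rise was at least 1.77-fold under Cre (adjusted p = 0.14) and at least 1.99-fold under KO (adjusted p = 0.195). The KO bound rests on replicate 4: without it the rise was at least 1.16-fold (adjusted p = 0.437). The call appeared filed as Cre without Cre TAC replicate 3 or KO TAC replicate 4 (adjusted p = 0.0333 and 0.0238). Col24a1 passed the filter on dim probes through TAC arrays only, so these tests and folds are no independent support for a rise. It is included in the count of collagens that rose filed as Cre without KO TAC replicate 4. The count of groups without overlap filed as KO and that at an unadjusted p filed as Cre include it as well.

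**Figure D2:**
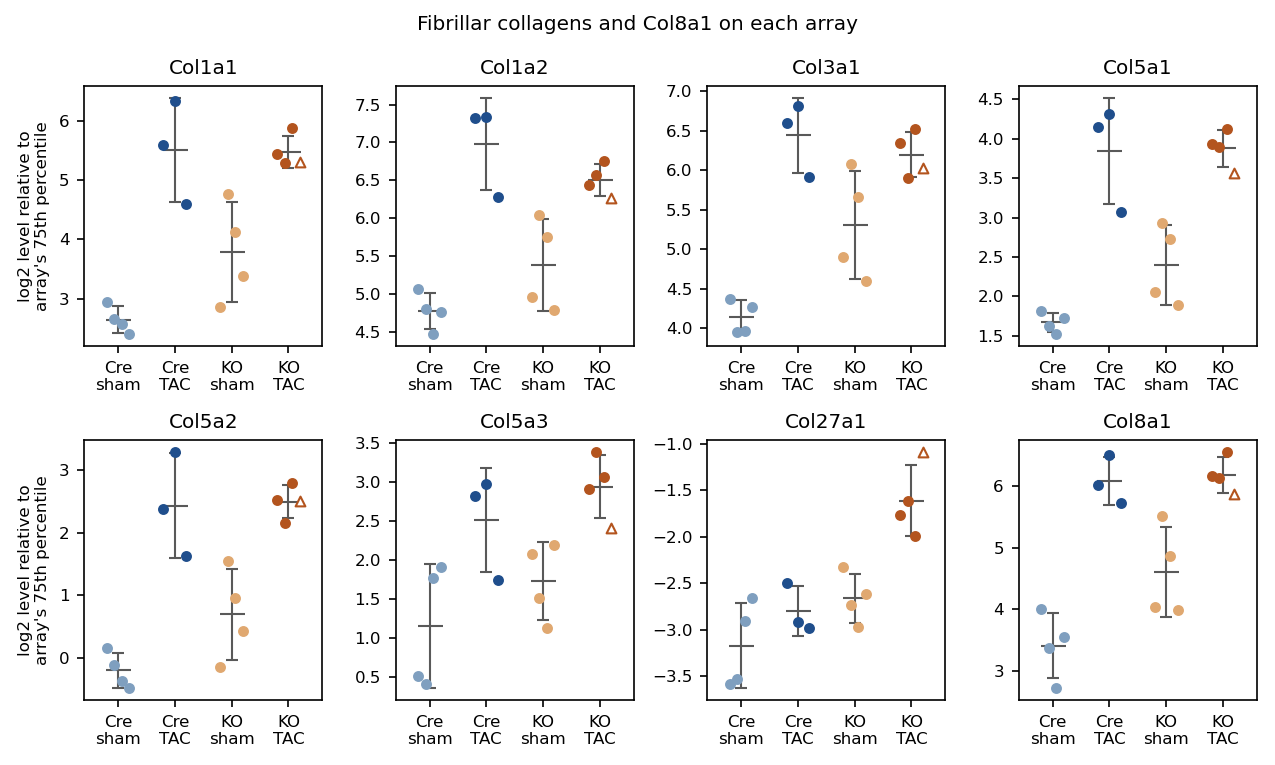
Level of 7 fibrillar collagens and Col8a1 on each array, on a log2 scale centred on each array's 75th percentile, by group; points are arrays, the open triangle is KO TAC replicate 4, and bars give the mean and SD. For Col1a1 the TAC means are 5.52 and 5.48 and the sham means 2.64 and 3.78, and KO sham replicates 2 and 3 lie above replicates 1 and 4 in 6 of the 8 panels.

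The arrays of a group kept a similar order over the collagens that rose filed as Cre. These genes were chosen from the same arrays, and the order over all features was not counted. Among the 11 collagens that rose filed as Cre, Cre TAC replicate 3 was the lowest TAC array for 10 and replicate 2 the highest for 11. KO sham replicates 2 and 3 both lay above replicates 1 and 4 for 10 of the 11. The median difference of the 11 fibrillar genes from their Cre sham means was 2.46, 2.65 and 1.40 on the Cre TAC arrays. It was 0.76, 1.26, 1.05 and 0.63 on the KO sham arrays and 1.76, 1.79, 2.38 and 2.21 on the KO TAC arrays. On Cre TAC replicates 1 to 3 the median of the other classes' collagens kept the order, at 0.50, 1.02 and 0.25. That of the FACITs (0.52, 0.43 and 0.59) and of the basement membrane chains (-0.39, 0.64 and 0.16) did not.

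Bases upstream of the start of 4 collagens that rose are shown, with matches of 3 core motifs in capitals on either strand. These are the TATA box (TATAAA), the CCAAT box (its name gives its letters) and the GC box (GGGCGG). They are the 250 bases before the RefSeq start on GRCm38.p6, 5′ to 3′ along the gene. Col1a2 lies at chr6:4505368-4505617 on the plus strand, Col3a1 at chr1:45311288-45311537 on the plus strand, Col5a1 at chr2:27886175-27886424 on the plus strand and Col8a1 at chr16:57754738-57754987 on the minus strand.
Col1a2: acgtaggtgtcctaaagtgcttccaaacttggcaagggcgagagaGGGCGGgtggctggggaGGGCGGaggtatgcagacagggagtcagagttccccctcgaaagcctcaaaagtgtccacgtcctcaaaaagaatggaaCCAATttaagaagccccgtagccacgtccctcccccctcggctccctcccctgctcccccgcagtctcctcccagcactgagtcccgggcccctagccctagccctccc
Col3a1: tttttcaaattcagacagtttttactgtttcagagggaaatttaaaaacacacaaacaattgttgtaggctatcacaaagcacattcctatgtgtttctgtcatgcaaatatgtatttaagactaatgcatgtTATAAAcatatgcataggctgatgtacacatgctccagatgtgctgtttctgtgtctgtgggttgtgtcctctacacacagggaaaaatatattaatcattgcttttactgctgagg
Col5a1: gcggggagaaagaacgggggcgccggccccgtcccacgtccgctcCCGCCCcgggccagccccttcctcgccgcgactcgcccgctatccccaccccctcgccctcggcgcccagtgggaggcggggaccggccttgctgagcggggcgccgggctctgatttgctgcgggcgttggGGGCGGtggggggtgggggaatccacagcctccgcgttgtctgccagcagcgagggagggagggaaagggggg
Col8a1: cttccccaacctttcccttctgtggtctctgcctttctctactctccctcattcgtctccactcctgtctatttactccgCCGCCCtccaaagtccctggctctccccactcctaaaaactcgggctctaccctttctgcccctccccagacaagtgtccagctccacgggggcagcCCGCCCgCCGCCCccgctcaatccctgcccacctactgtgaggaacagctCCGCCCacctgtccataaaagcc
The Col1a2 window holds a CCAAT box 109 bases before the start and GC boxes further upstream. The Col3a1 window holds a TATA box 117 bases before the start. The Col5a1 and Col8a1 windows hold GC boxes, those of Col8a1 on the reverse strand. An entry in the RefSeq table was found for 30 of 37 members. Within 250 bases, the GC box stood in 20 of these 30 against 32.7% of all 32851 promoters in the table, in 8 of 12 that rose in either comparison and in 12 of 18 that did not. The CCAAT box stood in 12 of 30 (33.8% of all promoters) and the TATA box in 3, Col3a1, Col13a1 and Col11a2 (12.4%). The AP-1 motif TGANTCA stood in 1, Col6a1 (6.75%). The TEAD motif GGAATG stood in 3 (12.6%), and the SMAD motif CAGAC in 15 (42.2%). The motifs were searched on both strands, neighbouring matches may share end letters, and a match describes these letters only. A collagen with more than 1 listed start (Col9a1, Col6a2 and Col18a1) was counted if any start matched. The shares of all promoters count each start by itself, so the 2 are not in the same unit.

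Type IV chains split. Col4a1 and Col4a2, which form the common basement membrane network of all vessels and muscle cells, were higher after TAC, and Col4a3, a chain of specialised membranes such as that of the kidney filter, was lower. Col4a1 read 3.92, 3.65, 3.73 and 4.49 after sham and 4.85, 5.25 and 4.62 after TAC filed as Cre, and 4.22, 4.15, 3.91 and 4.17 against 5.07, 5.62, 5.30 and 4.46 filed as KO. No groups overlapped, though Cre sham replicate 4 came close to the TAC arrays. Col4a1 rose filed as KO (1.00 ± 0.25, adjusted p = 0.0126) and differed by 0.96 ± 0.28 filed as Cre (adjusted p = 0.0598). The latter passed without Cre sham replicate 4 (1.14, adjusted p = 0.0363), KO TAC replicate 2 (adjusted p = 0.0484) or KO TAC replicate 4 (adjusted p = 0.0144).

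Col4a2 read 3.66, 3.47, 3.53 and 3.96 after sham and 4.34, 4.85 and 4.45 after TAC filed as Cre, and 3.65, 4.04, 3.74 and 3.90 against 4.89, 5.01, 5.05 and 4.31 filed as KO. It rose by 0.89 ± 0.21 (adjusted p = 0.0265) and 0.98 ± 0.20 (adjusted p = 0.00323). The first call ended without Cre TAC replicate 1 or 2 or without Cre sham replicate 1, 2 or 3, with an adjusted p from 0.0557 to 0.176. The starts of Col4a1 and Col4a2 lie 21 bases apart on opposite strands in the RefSeq table. The within-array difference of their 2 probes was 0.29 ± 0.16 and 0.36 ± 0.17 in Cre sham and TAC arrays and 0.28 ± 0.20 and 0.30 ± 0.21 in KO sham and TAC arrays (SD, n = 4, 3, 4 and 4), so the pair shifted alike within that spread.

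Col4a3 read -2.30, -2.44, -2.61 and -2.47 after sham and -3.62, -3.88 and -2.89 after TAC filed as Cre. In the KO groups it read -2.34, -1.62, -2.44 and -2.46 after sham and -4.32, -4.30, -3.36 and -3.81 after TAC. All TAC arrays lay below all sham arrays. It fell filed as KO (-1.73 ± 0.27, adjusted p = 0.000833) and was the 1 collagen called lower there. Filed as Cre the difference of -1.01 ± 0.30 did not pass (adjusted p = 0.0666), but did without Cre TAC replicate 3 (-1.29, adjusted p = 0.0241) or KO TAC replicate 4 (adjusted p = 0.042). Its dimmer probe gave -1.17 and -1.32, the second past the threshold (adjusted p = 0.0403). The within-array difference of the Col4a1 and Col4a3 probes moved from 6.40 ± 0.38 to 8.37 ± 0.81 filed as Cre and from 6.33 ± 0.39 to 9.06 ± 0.74 filed as KO, where only the shift and not the size can be read.

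The other type IV chains did not pass. Col4a4 differed by -0.08 ± 0.27 and -0.08 ± 0.25, Col4a5 by 0.36 ± 0.48 and 0.15 ± 0.44. The KO value of Col4a4 was -0.35 without KO TAC replicate 4. Col4a6 read 1.38 on KO TAC replicate 4 and at most -1.68 on the other arrays. It differed by -0.62 ± 0.77 filed as Cre and by 0.82 ± 0.71 filed as KO, which became -0.14 without that array. Its 3 probes differed in sign in both comparisons.

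**Figure D3:**
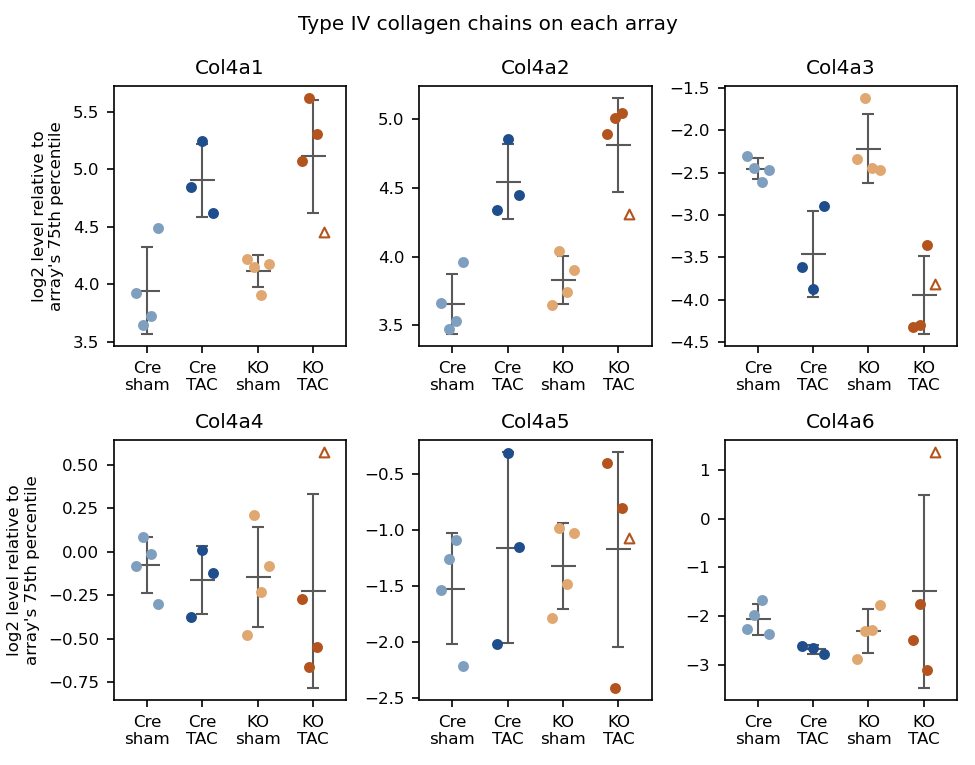
Level of the 6 type IV chains on each array, on a log2 scale centred on each array's 75th percentile, drawn as in the plot of fibrillar genes with the open triangle for KO TAC replicate 4. The TAC means of Col4a1 are 4.91 and 5.11 against sham means of 3.95 and 4.11, those of Col4a3 are -3.46 and -3.95 against -2.45 and -2.22, and Col4a6 is high on 1 array only.

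Among FACITs, Col16a1, a minor fibril-associated chain, rose filed as Cre. It read 1.12, 0.94, 0.85 and 0.99 after sham and 2.59, 3.06 and 2.22 after TAC, a rise of 1.65 ± 0.28 (adjusted p = 0.00471). The KO arrays read 1.34, 2.36, 1.83 and 1.08 after sham and 2.48, 2.09, 2.59 and 2.39 after TAC, and these groups overlapped (0.74 ± 0.26, adjusted p = 0.0574). KO sham replicate 2 lay above TAC replicate 2 there.

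Col14a1, a fibril-associated collagen of dense connective tissue, read 0.33, -0.16, -0.41 and -1.13 after sham and 1.09, 1.81 and 1.02 after TAC filed as Cre, with no overlap. Filed as KO it read 0.11, 1.40, 1.19 and -0.10 after sham and 0.77, -0.64, 0.81 and 0.13 after TAC, which overlapped. The difference was 1.65 ± 0.47 filed as Cre (adjusted p = 0.0576, and 0.0393 and 0.0443 without KO TAC replicate 4 or 2). With slide as a fixed block it passed (1.81 ± 0.35, adjusted p = 0.0153). Filed as KO the difference was -0.38 ± 0.43 (adjusted p = 0.572). The difference of the responses, -2.03 ± 0.64, did not pass (adjusted p = 0.379). A second Col14a1 probe, well above background on 3 arrays, gave 0.91 and 1.34, the latter of the other sign.

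Col19a1 differed by -0.50 ± 0.26 and -0.33 ± 0.24. The type IX chains, which decorate cartilage fibrils, were dim. Col9a1 passed the filter on dim probes through 3 KO TAC arrays only, with -1.25 on replicate 4 against -6.26 and -5.43 on replicates 1 and 2. Against the sham arrays this was a difference of at least 2.69-fold filed as KO (adjusted p = 0.0943), and without replicate 4 of at least 1.11-fold (adjusted p = 0.0885). Since Col9a1 is a member through those TAC arrays alone, these folds and tests are no independent support for a rise. It is included in the collagens counted as higher filed as KO at an unadjusted p under 0.05. Col9a2 differed by 1.11 ± 0.44 and -0.17 ± 0.40. With slide as a block the first was 1.36 (adjusted p = 0.00512) and the difference of the responses -1.53 (adjusted p = 0.0448), with 0.0465% of all features lower in that difference. Between genotypes after TAC the block gave -1.20 for Col9a2 (adjusted p = 0.00756), with 3.34% of all features lower. Col9a3 differed by -0.56 ± 0.98 and 0.43 ± 0.91, and the latter turned to -0.62 ± 0.62 without KO TAC replicate 4. Of the cartilage and bone markers listed, 6 were measured and Sox9 rose filed as Cre (1.56 ± 0.39, adjusted p = 0.0328). A summed level is log2 of the list's levels added on the linear scale, so the brightest probes weigh most in it. The summed level of the 6 was -1.03 to -0.64 in Cre sham, -0.03 to 0.07 in Cre TAC, -1.12 to -0.39 in KO sham and -1.36 to 1.18 in KO TAC, or up to -0.53 there without replicate 4. Their part in the values of the cartilage collagens was not tested.

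Col8a1 had the second largest rise filed as Cre among all collagens that passed. Its product forms a short-chain network made by vascular smooth muscle and fibroblasts. It read 4.00, 3.37, 2.71 and 3.54 after sham and 6.02, 6.50 and 5.73 after TAC filed as Cre, and 4.04, 5.51, 4.86 and 3.98 against 6.17, 6.13, 6.56 and 5.87 filed as KO. Every TAC array lay above every sham array of its genotype. It rose by 2.68 ± 0.38 (adjusted p = 0.00208) and 1.58 ± 0.35 (adjusted p = 0.00629), and its other probe gave 2.81 and 1.94. Its partner chain Col8a2 differed by 1.83 ± 0.76 (adjusted p = 0.204) and 0.88 ± 0.70 (adjusted p = 0.411), the latter 0.32 without KO TAC replicate 4.

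Type VI collagen forms beaded filaments that tie cells to fibres. Col6a1 read 2.18, 2.05, 2.09 and 2.46 after sham and 3.01, 3.37 and 2.89 after TAC filed as Cre, and Col6a2 read 1.18, 0.98, 0.84 and 1.27 against 2.15, 2.59 and 2.02. Neither overlapped. Col6a1 rose by 0.89 ± 0.24 (adjusted p = 0.0477) and Col6a2 by 1.18 ± 0.25 (adjusted p = 0.0133). The call of Col6a2 ended without Cre TAC replicate 2 (1.02, adjusted p = 0.0993). That of Col6a1 ended for 11 of 15 arrays, namely Cre TAC 1 to 3, Cre sham 1 to 4, KO TAC 1 and 2 and KO sham 3 and 4, with an adjusted p from 0.0517 to 0.265 (0.75 without Cre TAC replicate 2). It also ended with slide as a fixed block (0.92 ± 0.26, adjusted p = 0.0589).

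Filed as KO, Col6a1 read 2.01, 2.81, 2.61 and 2.05 after sham and 2.33, 2.50, 2.76 and 1.97 after TAC, which overlapped (0.02 ± 0.22, adjusted p = 0.961). Col6a2 read 1.11, 1.87, 1.56 and 0.79 against 2.03, 2.01, 2.17 and 1.74 (0.65 ± 0.23, adjusted p = 0.0545). It passed without KO TAC replicate 4 (0.74, adjusted p = 0.0315) or KO sham replicate 2 (0.83, adjusted p = 0.0176). Col6a4 differed by -0.05 ± 0.44 and 0.67 ± 0.41, the latter 0.16 without KO TAC replicate 4. Col6a6 read -1.52 on KO TAC replicate 4 and -8.36, -6.88 and -7.03 on the other KO TAC arrays, none of these 3 well above background. It differed by -0.11 ± 1.06 with that array (adjusted p = 0.95) and was called lower at -1.59 without it (adjusted p = 0.00755).

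The multiplexins carry fragments with known effects on vessels, endostatin among them. Col18a1, its source, read 0.97, 0.68, 0.18 and 0.87 after sham and 1.77, 2.09 and 1.59 after TAC filed as Cre, without overlap (1.14 ± 0.32, adjusted p = 0.0534). Under KO it read 1.15, 1.09, 1.23 and 0.74 against 1.54, 2.21, 2.08 and 0.73, where TAC replicate 4 lay at the lowest sham array and the other TAC arrays above all of them (0.59 ± 0.29, adjusted p = 0.18). Without that array it passed in both genotypes, at 1.14 (adjusted p = 0.00691) and 0.89 (adjusted p = 0.00962). Filed as Cre it also passed without KO TAC replicate 2 (adjusted p = 0.0442) and with slide as a fixed block (1.14 ± 0.29, adjusted p = 0.043). Its dimmer probe passed in both with all arrays, at 1.04 and 0.82. Col15a1 differed by 0.73 ± 0.21 filed as Cre (adjusted p = 0.0653, or 0.0225 without KO TAC replicate 4) and by -0.12 ± 0.20 filed as KO, which was 0.0091 without that array. Slide as a fixed block also gave a call filed as Cre (0.80 ± 0.21, adjusted p = 0.045). A dimmer Col15a1 probe gave 0.79 ± 0.58 and 0.96 ± 0.54, the latter of the other sign.

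Col26a1 read -3.91, -3.86, -4.05 and -3.65 after sham and -1.86, -1.34 and -1.997 after TAC filed as Cre, and rose by 2.13 ± 0.36 (adjusted p = 0.0048). For KO the levels were -3.17, -2.52, -3.09 and -4.32 after sham and -2.57, -3.33, -2.40 and -3.22 after TAC, with overlap (0.39 ± 0.34, adjusted p = 0.452). Col13a1, a collagen of the cell membrane, read -3.67, -3.70, -3.95 and -3.66 after sham and -3.23, -2.48, -3.58 and -1.90 after TAC filed as KO. It rose there by 0.94 ± 0.30 (adjusted p = 0.0368), with a difference of -0.39 ± 0.32 filed as Cre (adjusted p = 0.655). This call ended for 9 of 15 arrays: Cre sham 1 to 3, KO sham 1 to 4 and KO TAC 2 and 4, with an adjusted p up to 0.0923 and a value of 0.64 without KO TAC replicate 4.

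The other membrane collagens Col23a1 and Col25a1 differed by -0.32 ± 0.34 and -0.05 ± 0.41 filed as Cre and by 0.35 ± 0.32 and 0.33 ± 0.38 filed as KO. Without KO TAC replicate 4 the latter pair was 0.07 and -0.13. Col7a1, the anchoring fibril of skin, differed by 0.14 ± 0.71 and 0.41 ± 0.65, the latter 0.04 without that array. Col28a1 was well above background on 1 Cre sham and 2 KO TAC arrays and gave no usable fold. The members just inside the rule were Col9a1 and Col28a1, well above background on 3 arrays each, and Col24a1 on 4. Just outside it were Col10a1 and Col17a1, on 1 array each. All 5 had their highest level on KO TAC replicate 4, from -5.51 to -1.25.

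**Figure D4:**
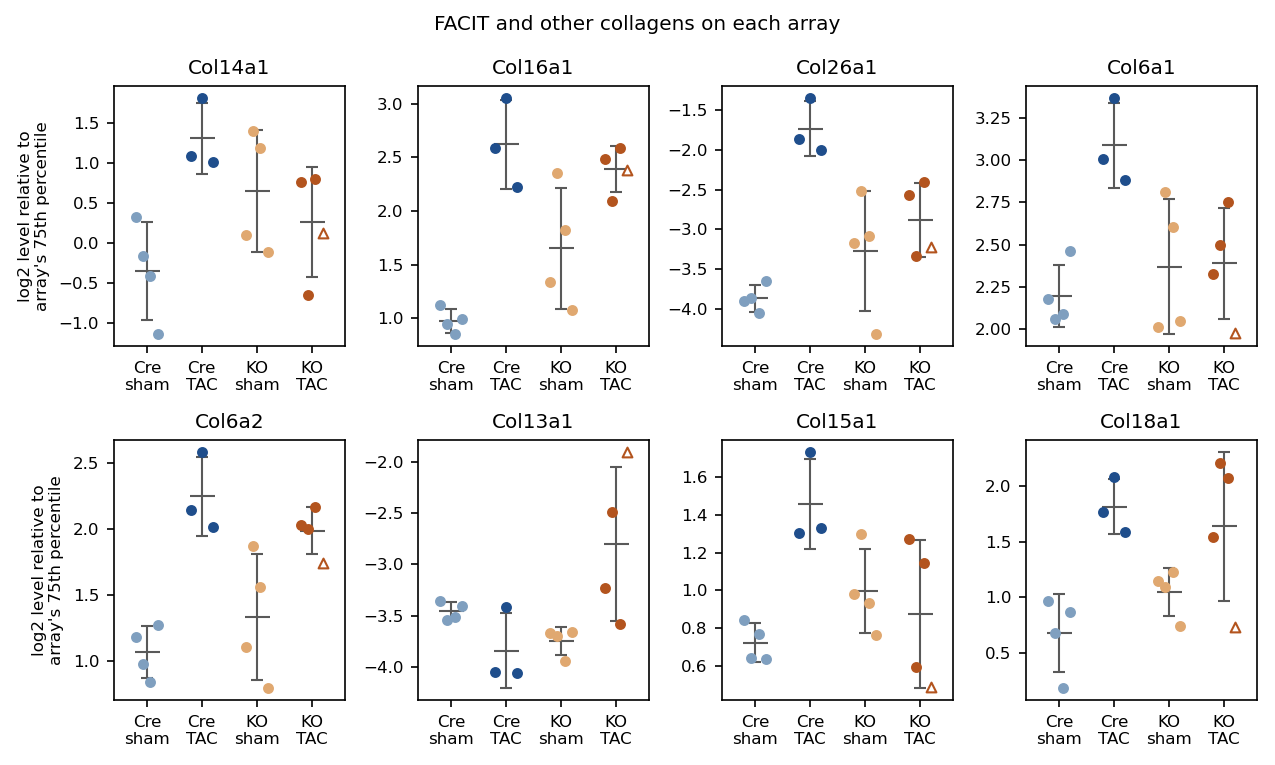
Level of 8 FACIT and other collagens on each array, on a log2 scale centred on each array's 75th percentile, by group; the open triangle is KO TAC replicate 4, and bars give the mean and SD. For Col26a1 and Col14a1 the Cre TAC means of -1.73 and 1.31 stand above the KO TAC means of -2.88 and 0.26, whereas Col13a1 has its highest mean, -2.80, in KO TAC.

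Between genotypes after sham, 0 of 37 collagens passed (limma, 0.0155% of all features called), with 7 higher and 0 lower filed as KO at an unadjusted p under 0.05. These 7 were Col1a1, Col3a1, Col5a1, Col5a2, Col14a1, Col16a1 and Col8a1, at 1.14, 1.17, 0.73, 0.90, 0.99, 0.68 and 1.19, with adjusted p of 0.596 or above. At that threshold 4.68% of all features were counted. Col3a1, Col5a1 and Col24a1 were higher on every KO sham array than on any Cre sham array and Col13a1 lower (3.75% and 3.09% of all features). Col24a1 was not well above background on any of these sham arrays, so its difference is one between background readings. The direction follows the scanner files and turns with the labels of the value table.

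After TAC, Col27a1 passed between genotypes (1.19 ± 0.28 higher filed as KO, adjusted p = 0.0374), where 1.14% of all features were higher and 1.9% lower. The call ended for 9 of 15 arrays left out in turn: Cre TAC 1 to 3, Cre sham 2 and 3, KO TAC 2 and KO sham 2 to 4, with an adjusted p from 0.0502 to 0.191. Groups did not overlap for Col27a1 and, lower filed as KO, for Col9a2, Col14a1, Col6a1, Col15a1 and Col26a1 (4.97% of all features higher and 7.68% lower). Their differences were -0.95 ± 0.44, -1.04 ± 0.47, -0.70 ± 0.24, -0.58 ± 0.21 and -1.15 ± 0.36, with adjusted p from 0.11 to 0.279.

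For the difference of the TAC responses, 0 of 37 collagens passed (limma, 0.0116% of all features called). At an unadjusted p under 0.05, 1 was higher and 8 were lower filed as KO, where 7.17% of all features were counted in either direction. The largest differences among them were Col14a1 at -2.03 ± 0.64, Col26a1 at -1.74 ± 0.50 (adjusted p = 0.301), Col3a1 at -1.42 ± 0.46 (adjusted p = 0.39) and Col13a1 at 1.33 ± 0.44 (adjusted p = 0.416). Col1a1 differed by -1.17 ± 0.60 (adjusted p = 0.759), Col1a2 by -1.09 ± 0.45 and Col8a1 by -1.10 ± 0.52, all lower filed as KO and short of the threshold.

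Genes whose products build, bind or cut collagen were read beside the collagens. Their counts stand against the shares of all features given above, 4.3% higher and 1.64% lower filed as Cre and 10.6% and 12.6% filed as KO. Of 30 measured enzymes and chaperones that modify and process collagen, 9 rose and 0 fell filed as Cre, with a median of 0.72. The crosslinking enzyme Loxl2 rose by 2.94 ± 0.40 (adjusted p = 0.0018), Loxl3 by 2.46 ± 0.50 and Loxl1 by 1.66 ± 0.26. Adamts2, which trims the amino end of procollagens, rose by 2.01 ± 0.28 (adjusted p = 0.00189). The others that rose were Fkbp10, P3h3, P4hb, Pcolce and Sparc. Filed as KO, 9 rose and 1 fell, with a median of 0.38. Loxl2 and Loxl3 rose by 2.38 ± 0.37 and 2.81 ± 0.46. Loxl4 was dim on each sham array, not well above background, and its rise was at least 7.01-fold (adjusted p = 0.00217), or at least 4.63-fold without KO TAC replicate 4. Loxl4 passed the filter on dim probes through TAC arrays only, so its test and folds are no independent support for a rise. It is included in the 9 that rose filed as KO. Without KO TAC replicate 4 it is included in the enzyme counts of both comparisons. Colgalt2, a collagen galactosyltransferase, fell (-1.85 ± 0.19, adjusted p = 9.99e-05).

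Of 8 collagen receptors, Mrc2, an uptake receptor for collagen fragments, rose filed as Cre (1.51 ± 0.34, adjusted p = 0.0198). Filed as KO, Antxr1 and Antxr2 fell, Antxr2 by 1.24 on the log2 scale (adjusted p = 0.00364). Of 13 fibril-binding proteins, the matricellular protein gene Postn rose by 3.78 ± 0.56 and 2.54 ± 0.51, and fibronectin (Fn1) by 2.49 ± 0.44 and 1.73 ± 0.41. Bgn (biglycan) rose as well, by 1.79 ± 0.34 filed as Cre. The leucine-rich proteoglycans Ogn and Prelp fell filed as KO, at -1.58 ± 0.19 and -1.43 ± 0.22, and Tnxb fell too. The call of Tnxb ended without KO TAC replicate 4 (adjusted p = 0.0737), and Podn was then called lower (-0.75 ± 0.23, adjusted p = 0.024). The list had 3 higher and 0 lower under Cre (median 0.21) and 3 higher and 3 lower under KO (median -0.65).

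Of 12 basement membrane partners, Agrn, Lama5, Lamb2 and Lamb3 fell filed as KO, with Agrn at -1.17 ± 0.38, Lama5 at -0.83 ± 0.21 and Lamb2 at -0.75 ± 0.16. The call of Agrn ended without KO TAC replicate 4 (-0.94, adjusted p = 0.079), and Lamb3 was then called lower filed as Cre as well. The list's medians were 0.08 and -0.18. Of 6 collagenases and gelatinases, Mmp14, a membrane-bound collagenase, rose by 1.95 ± 0.31 and 1.71 ± 0.29. Mmp8, the neutrophil collagenase, was not well above background on Cre sham arrays, and its rise there was at least 8.76-fold (adjusted p = 0.0129). It rose by 3.75 ± 0.73 filed as KO. Filed as KO, Mmp9 rose by 1.81 ± 0.44 and Mmp2 differed by -0.77 ± 0.25, a fall that passed. Without KO TAC replicate 4 the enzyme list had 14 higher and 1 lower filed as Cre and 12 and 1 filed as KO, the receptors 1 and 0, and 1 and 2, and the collagenases 3 and 0, and 3 and 1. These stand against 7.93% and 5.58% of all features filed as Cre and 14.8% and 16.7% filed as KO. The fibril-binding list then had 3 and 0, and 3 and 3.

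**Figure D5:**
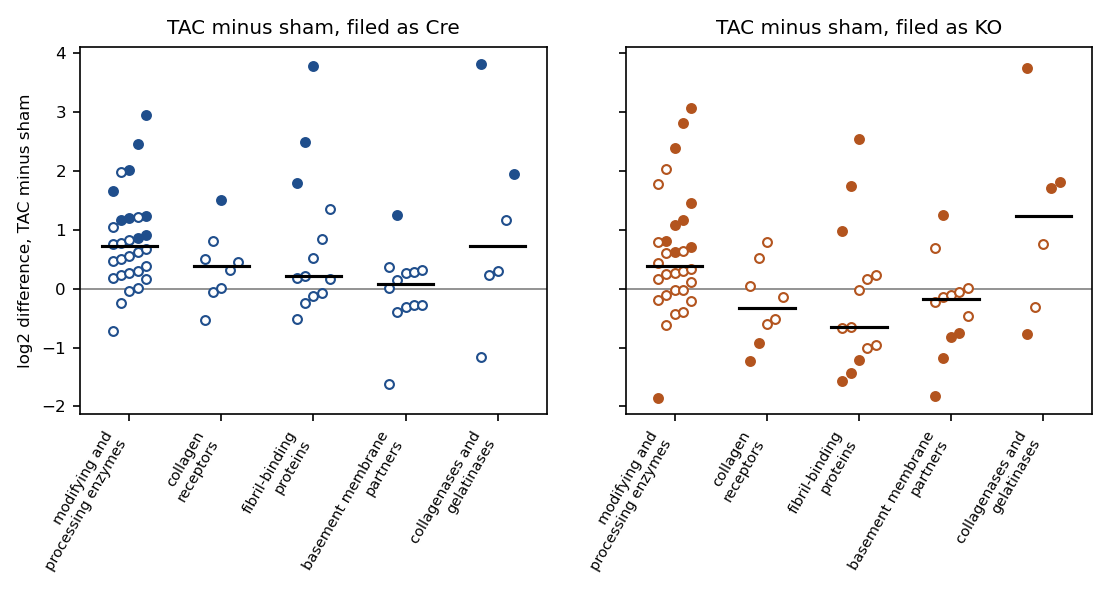
TAC minus sham as a log2 difference for the measured members of 5 lists of collagen partners, for Cre (left) and KO (right); filled points passed the threshold, open points did not, and bars are list medians. The enzyme list has medians of 0.72 and 0.38, and the fibril-binding list 0.21 and -0.65, with Postn its highest member on both sides.

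Markers of cell types moved beside the collagens, and in bulk tissue more cells of a type and more RNA per cell cannot be told apart. Of 8 activated fibroblast markers, 4 rose in each comparison: Cthrc1, Meox1, Postn and Thbs4. Cthrc1 rose at least 76.3-fold filed as Cre (adjusted p = 0.00198), where it was not well above background on the sham arrays, and rose by 5.55 ± 0.93 filed as KO. Summed levels here too follow mostly the brightest probes of a list and do not stand for all its members. The summed level of the list was 4.81 to 6.20 in Cre sham, 6.71 to 7.73 in Cre TAC, 5.17 to 7.12 in KO sham and 6.63 to 7.92 in KO TAC. KO sham thus overlapped KO TAC here, as it did for Col3a1.

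Of 10 general fibroblast markers, Mfap5 rose (2.83 ± 0.36 and 1.76 ± 0.33) and Gsn fell (-0.81 ± 0.22 and -1.19 ± 0.20) in both, and Clec3b, Dpt and Tcf21 fell filed as KO. Their summed level was 7.53 to 7.88 and 7.27 to 7.74 in Cre sham and TAC, and 7.70 to 8.02 and 6.69 to 7.32 in KO sham and TAC. Without KO TAC replicate 4 the last range was 7.28 to 7.32. Of 6 mesothelial and epicardial markers, 4 rose under Cre and 5 under KO. Krt8 rose by 4.28 ± 0.52 and 3.66 ± 0.48. The summed level of the 6 was 0.08 to 1.80 after sham and 3.83 to 4.25 after TAC under Cre. Under KO it was -0.78 to 2.18 after sham and 3.00 to 4.23 after TAC. Of 7 macrophage markers Mrc1 rose filed as Cre (1.66 ± 0.39), with sums of 3.72 to 4.60 in Cre sham, 4.77 to 5.42 in Cre TAC, 4.04 to 5.11 in KO sham and 4.46 to 5.05 in KO TAC, or from 4.66 there without replicate 4.

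Of 8 endothelial markers 0 rose; Kdr and Tie1 fell filed as KO (-1.14 ± 0.28 and -0.99 ± 0.28), as did Tek. Their sums were 5.79 to 6.44, 5.21 to 5.79, 5.44 to 6.27 and 4.52 to 6.14 in the same order. Without KO TAC replicate 4 the last range was 5.26 to 6.14. Of 8 smooth muscle and pericyte markers Abcc9 fell in both (-1.30 ± 0.30 and -1.90 ± 0.28), Rgs5 (-0.92 ± 0.17) and Kcnj8 fell and Cspg4 rose filed as KO. Of 4 tendon and valve markers Thbs4 rose in both, of 5 Schwann cell markers Mbp rose filed as Cre (1.13 ± 0.22), and of 4 adipocyte markers Cfd fell there (-3.18 ± 0.85). Of 8 heart muscle markers 0 passed filed as Cre, and Myh6 (-0.999 ± 0.29, adjusted p = 0.0266) and Pln (-1.40 ± 0.23, adjusted p = 0.000884) fell filed as KO, where the list median was -0.45. Both calls held without KO TAC replicate 4, at -0.66 and -1.21. The summed level of the 8 was 10.84 to 10.86 in Cre sham, 10.69 to 11.01 in Cre TAC, 10.66 to 11.10 in KO sham and 10.01 to 10.89 in KO TAC, or from 10.52 there without replicate 4.

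Without KO TAC replicate 4 the marker counts were as follows. Activated fibroblast markers had 5 higher and 1 lower filed as Cre and 4 and 1 filed as KO. General fibroblast markers had 1 and 1, and 2 and 4, mesothelial markers 5 and 0 in both, and macrophage markers 3 and 0, and 1 and 0. Endothelial markers had 0 and 1, and 0 and 3, smooth muscle and pericyte markers 2 and 2, and 2 and 3, and adipocyte markers 0 and 2, and 0 and 1. Cartilage and bone markers had 1 and 0, and 0 and 2, Schwann cell markers 1 and 0, and 0 and 1, and tendon and valve markers 1 and 0 in both. Heart muscle markers had 0 and 1, and 0 and 2. All of these counts are to be read against the shares of all features called in the same fit. The part of these cell types in the collagen values was not tested.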

How the data were processed

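RNA from 15 heart apex samples was hybridised to 1-colour Agilent arrays. Per the file headers, the deposited processed signal is an intensity, made by Agilent Feature Extraction 10.7.3.1 and already corrected for background. The authors' deposited value table holds log2 values with column medians of 7.22 to 7.23, and its processing and centring are not given in the sources used here. Each array's log2 processed signal was centred on its 75th percentile, control and outlier-flagged spots were left out, probes well above background on at least 3 arrays were kept, and the brightest probe stood for a gene. Differences were fitted over the 4 groups with limma 3.58.1 in R 4.3.3 (lmFit, eBayes), with Benjamini-Hochberg adjustment over 25787 features and a threshold of 0.05. The fit was tested on simulated data. "At least" folds compare the bright group with a floor, each dim array's faintest signal that was well above background, or the probe's own where higher. An adjusted p beside such a fold belongs to the fitted difference of the measured levels, without that floor. The number of arrays limits the precision. Per the labels each group had 4 animals, of which 3 Cre TAC arrays were analysed here, and arrays were taken as separate animals. All collagens were named. Of each other list, the rule named up to 4 genes that passed and had no overlap between groups, by size of change, in each TAC comparison; further genes were named after their values were seen. Promoters came from RefSeq (GRCm38.p6). The members and lists were chosen with earlier results of these data known. Alternatives were other scalings, filters, probe rules, weights, slide and replicate blocks, the deposited values and each array left out in turn. Those without KO TAC replicate 4 together with another choice were added after seeing the data. 1 gene of the partner lists is not reported here.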

Additional observations from a re-analysis of the deposited data

Results flagged for a closer look

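In 111 groups of 4 arrays, 1 array's gap to the nearest other was set against the group's whole range, and 5 groups exceeded Dixon's critical value for 4 arrays, where chance gives about 1 in 20 groups. Col4a3 was high on KO sham replicate 2 (-1.62, share of the range 0.860), above the other KO sham arrays. Col13a1 was low on KO sham replicate 3 (-3.95, share 0.848). Col9a1, not well above background there, was low on KO sham replicate 3 (-8.29, share 0.844). Col7a1 was high on KO TAC replicate 4 (-1.01, share 0.857), the array that stands apart as a whole. Col25a1 was high on Cre sham replicate 4 (-4.21, share 0.844).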

How the results depend on the processing

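Counts of collagens called with all arrays and the 75th percentile were 11 higher and 0 lower after TAC filed as Cre, 10 higher and 1 lower filed as KO, 0 between genotypes after sham, 1 after TAC and 0 for the difference of responses. Array weights gave 17 and 1 filed as Cre, 2 lower filed as KO and 1 after sham. Slide as a random block gave 17 and 1 filed as Cre; as a fixed block it gave 2 between genotypes after TAC and 1 for the difference of responses. The fixed block without KO TAC replicate 4 gave 19 and 2 filed as Cre, 4 lower filed as KO, and 4 and 1 for the last 2 counts. Median scaling gave 6 higher filed as Cre, 0 higher filed as KO and 0 between genotypes after TAC. Median scaling or quantile normalization without KO TAC replicate 4 gave 1 lower filed as Cre, 2 lower filed as KO and 2 between genotypes after TAC. Probes chosen without that array gave 1 lower filed as Cre and 2 lower filed as KO. Between genotypes after TAC, the mean over probes, quantile normalization, no dim filter, only the compared groups and the replicate block each gave 0. Only the compared groups, or probes above background on all arrays, gave 1 lower filed as Cre. The authors' deposited values gave, with genotypes as labelled there, 2 lower filed as Cre, 17 higher filed as KO and 2 between genotypes after TAC. Turned to the scanner files they gave 17 and 1 filed as Cre, 2 lower filed as KO and 2 after TAC. As labelled there, Col14a1 (-0.37) and Col15a1 (-0.064) turned filed as Cre, Col13a1 (-0.28) filed as KO and Col27a1 (-0.87) between genotypes after TAC. With the operation taken from the description field, 0 were higher filed as Cre, 0 higher and 0 lower filed as KO and 0 differed after TAC. Filed as Cre, Col1a1 (-0.040), Col1a2 (-0.0015), Col3a1 (-0.048), Col5a1 (-0.026), Col5a2 (-0.10), Col4a1 (-0.34), Col4a2 (-0.21), Col16a1 (-0.073), Col6a1 (-0.16), Col6a2 (-0.18), Col8a1 (-0.22), Col15a1 (-0.059) and Col18a1 (-0.25) then turned. Filed as KO, Col27a1 (-0.28), Col4a3 (0.29) and Col13a1 (-0.54) did. Col6a6 filed as KO turned under normexp (0.074) and without KO TAC replicate 1 (0.69), 2 (0.20) or 3 (0.25) or KO sham replicate 3 (0.006), and was -1.59 without KO TAC replicate 4. With each array left out in turn the counts ran from 8 to 16 higher and 0 to 1 lower filed as Cre and 7 to 12 higher and 1 to 2 lower filed as KO. They ran from 0 to 0 after sham, 0 to 2 after TAC and 0 to 0 for the difference of responses. The remaining alternatives kept each count within 1.5 times. The cause was not tested. Same-numbered arrays did not consistently deviate together (correlations -0.35 to 0.43 over 14 pairs, 5 over 0.1), and 4 of these pairs also shared a slide. No pairing by number was seen, though so few pairs cannot settle it. The replicate block gave 9 higher and 0 lower filed as Cre and 9 and 1 filed as KO. Signal limits the dim collagens: Col9a1 and Col28a1 were well above background on 3 arrays each.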
